A study of Mus with 2 samples.

Results

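The proliferative spots were those positions of 2 mouse tumor sections at which transcripts of 6 mitotic genes made up the largest share of the RNA. They were chosen in each section by the summed level of Mki67, Top2a, Cdk1, Ccnb1, Ccnb2 and Birc5, and the top 10% of spots were taken. This gave 222 of 2219 spots in control and 195 of 1950 in rIL7, 417 of 4169 in all. A level is given as counts per 1000000 unique molecular identifiers (UMIs) of the same spots, written CPM. A UMI tags 1 captured RNA molecule, so that copies made by PCR are counted once.

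Both sections came from subcutaneous CT26 tumors of BALB/c mice aged 6 to 8 weeks that had received 200000 cells. CT26 is a colon carcinoma line of that strain, and both tumors grew from this 1 line. The rIL7 mouse had received 10 µg of recombinant IL-7 (rIL7) into the abdomen on days 11 and 13, the control mouse had received the vehicle, PBS, and both tumors carry the label day 15. Each frozen section of 10 µm was laid on a Visium slide, whose barcoded spots capture polyadenylated RNA in place. A spot covers an area wider than a cell and usually mixes cell types, so a proliferative spot is an area rich in these transcripts and not a dividing cell.

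Each group was 1 section of 1 tumor. No test between spots or between sections was therefore run, and no p-value is given. Ratios of summed CPM carry an exact binomial (Clopper-Pearson) 95% interval, which covers counting error only. Each section was also cut into 4 quadrants at its median grid row and column, and the range over quadrants describes the spread within a section. Spots and quadrants of a section share 1 library and are not replicates. The sections held 22951678 UMIs (control) and 25729233 UMIs (rIL7) in spots with more than 200 genes. The 1702 barcodes found in both libraries are the fixed position codes of the slide design and do not stand for shared cells. A lower level in a spot can come from fewer cells of a type or from less RNA per cell, and these cannot be told apart here.

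Cells that divide pass from growth through DNA replication to mitosis, and each phase has its own transcripts. Genes of replication are switched on by E2F factors at the start of S phase, while cyclins B, the kinase Cdk1 and the spindle proteins follow under FoxM1 and related factors before mitosis. In a transplanted tumor most cycling cells are usually tumor cells, but T cells, macrophages and stromal cells also divide and use the same genes.

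Among the 6 genes of the choice, Mki67 encodes the Ki-67 antigen that coats mitotic chromosomes, and Top2a the topoisomerase that untangles sister DNA. Cdk1 is the mitotic kinase, Ccnb1 and Ccnb2 are its cyclins, and Birc5 encodes survivin of the chromosomal passenger complex. On the mouse build mm10, Mki67 lies on chromosome 7 (135689784 to 135716450), Top2a on chromosome 11 (98992947 to 99024199) and Ccnb1 on chromosome 13 (100778739 to 100786486). Because these genes selected the spots, their levels are a description only. Their summed level in the chosen spots of the control section ran from 1183 to 2628 CPM with a median of 1376, and the other spots ran from 0 to 1180.3 with a median of 646. Chosen spots of the rIL7 section ran from 1134 to 3135 CPM with a median of 1278, and the others from 0 to 1133 with a median of 664. No gap marked the threshold. The nearest control spots inside it had 1183.18 and 1183.57 CPM and the nearest outside had 1180.26 and 1178.11, and in the rIL7 section 1134.29 and 1134.48 CPM stood against 1133.36 and 1131.99. Single genes of the choice were 1.97-fold (Ccnb1) to 2.35-fold (Top2a) higher in the chosen spots of the control section, and 1.91-fold (Birc5) to 2.26-fold (Ccnb1) in the rIL7 section.

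The choice rested on few molecules per spot. A chosen spot held a median of 11 UMIs of the 6 genes in the control section (range 1 to 24) and 14 in the rIL7 section (range 1 to 40), against medians of 6 and 8 in the other spots. To see how far the choice carried over to genes it had not used, spots were ranked on 3 of the 6 genes and the other 3 were read. In the control section, spots ranked on Mki67, Cdk1 and Ccnb2 had 490 CPM of Top2a, Ccnb1 and Birc5, and the remaining spots had 359, a ratio of 1.37 (interval 1.27 to 1.46). Ranked on Top2a, Ccnb1 and Birc5, the unused 3 genes stood at a ratio of 1.29 (1.20 to 1.39). The same ratios were 1.24 (1.16 to 1.32) and 1.28 (1.19 to 1.37) in the rIL7 section. The unused genes were thus higher in every one of these 4 readings, by less than the genes that made the ranking. Only 50 of 222 spots of control (22.5%) and 38 of 195 of rIL7 (19.5%) were chosen by both sets of 3 genes. Unrelated choices of 10% each would be expected to share 10%.

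The chosen spots were shallower than the rest. Their median was 7898 UMIs and 3495 genes in the control section, where the other spots had 9835 UMIs and 4025 genes. Those of the rIL7 section had 11137 UMIs and 4363 genes, against 13071 and 4707. Spots under 2000 UMIs numbered 10 of the 222 in control and 2 of the 195 in rIL7. Among the other spots they were 15 of 1997 and 5 of 1755, so such shallow spots were over-represented among the chosen. The shallowest chosen spots had 431 UMIs in control and 638 in rIL7. Every spot was also thinned to 5000 UMIs for the ranking, which left out 129 and 49 shallower spots. The ranking then picked a different set of spots. Thinning left few whole UMIs of the ranking genes per spot, so spots can tie at the cut. The way ties are settled can favour some positions, and this was not tested. Ratios after thinning are given beside several of the results, but they do not separate depth from position.

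**Figure D1:**
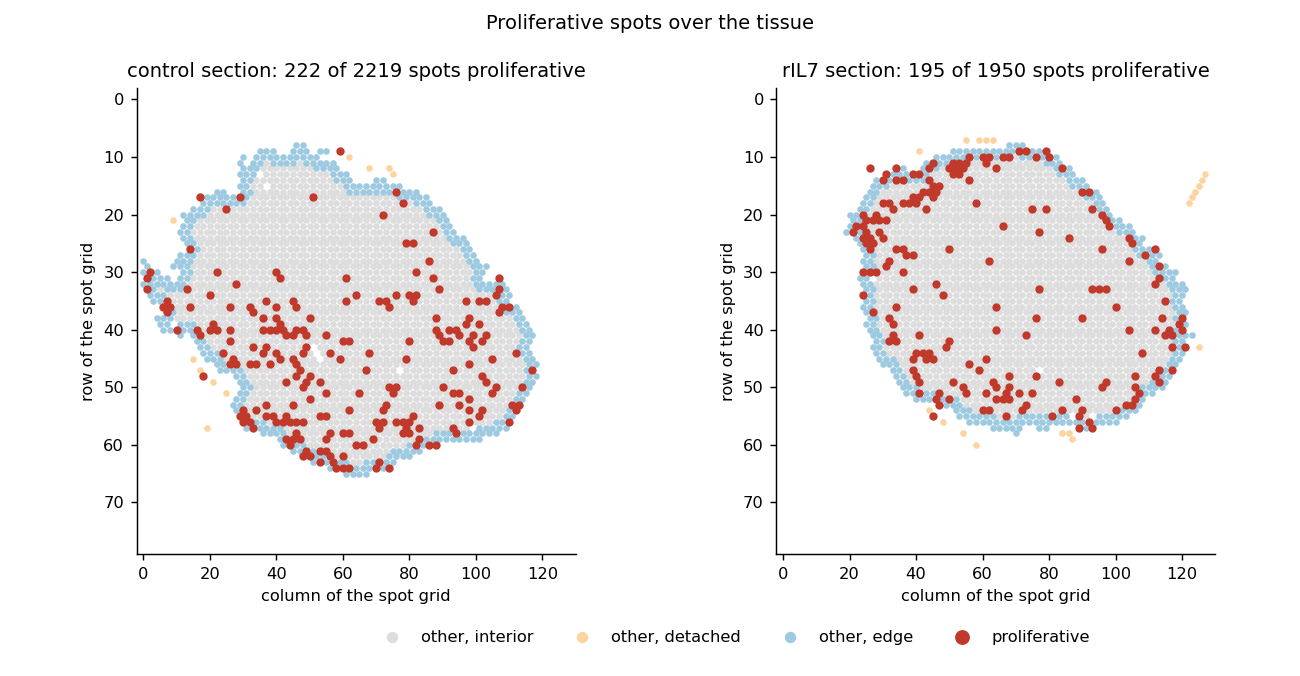
Position of the 222 proliferative spots of the control section (left) and the 195 of the rIL7 section (right) on the spot grid, with column on the horizontal and row on the vertical axis. Red points are proliferative spots, blue points other spots within 2 grid steps of the tissue outline, grey points other interior spots and pale orange points spots detached from the main piece. The lower left quadrant of the control section holds 89 of its red points and the upper left quadrant of the rIL7 section holds 77.

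The proliferative spots were scattered over both tumors and leaned towards the rim, as the maps of the 2 sections show. Of the edge spots, those within 2 grid steps of the outline, 52 of 401 (13.0%) were proliferative in the control section and 62 of 330 (18.8%) in the rIL7 section. Among interior spots the shares were 168 of 1806 (9.30%) and 131 of 1599 (8.19%). The quadrants were uneven, with 4.05% to 19.5% of their spots chosen in the control section and 6.55% to 13.5% in the rIL7 section. Chosen spots adjoined one another more often than other spots adjoined them. Of the grid neighbours of a proliferative spot, 18.5% were also proliferative in control and 20.7% in rIL7, against 8.98% and 8.70% of the neighbours of other spots. They formed 123 connected groups in control and 103 in rIL7, of which the largest held 11 and 15 spots. Spots with no proliferative neighbour numbered 74 of 222 and 64 of 195.

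The label was checked on cell cycle genes outside the choice, in 9 lists that were written with earlier results of these data known. Every list was higher in the proliferative spots of both sections and in each of the 8 quadrants. The genes that act in mitosis stood apart most. The spots were themselves ranked on mitotic genes, so genes of the same phase were favoured by the choice. The order of the lists therefore cannot show which phase prevailed in these spots. In the control section, 29 genes of mitotic kinases, the spindle checkpoint and the anaphase-promoting complex (APC/C) summed to 2695 CPM in the proliferative spots and 2047 in the others, a ratio of 1.32 (1.28 to 1.36, quadrants 1.19 to 1.29). For the rIL7 section the sums were 2448 CPM and 1977, a ratio of 1.24 (1.20 to 1.27, quadrants 1.19 to 1.28). After thinning the ratios were 1.18 in control and 1.19 in rIL7. With spots chosen and compared inside quadrants, an alternative added after seeing the data, they were 1.22 in control and 1.23 in rIL7. Spot by spot the groups overlapped widely. Proliferative spots of the control section ran from 855 to 5381 CPM with a median of 2723, and other spots from 283 to 6431 with a median of 2033. Across rIL7 the range was 507 to 4702 CPM with a median of 2427, against 0 to 4543 with a median of 1919.

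A gene was counted as higher or lower when its log2 ratio was at least 0.32 above or below 0, which for a lower gene is a ratio of at most 0.8, among genes with at least 50 CPM in the section. Over all such genes, 4.41% were higher and 4.26% lower in the proliferative spots of the control section (182 and 176 of 4128). For rIL7 the shares were 3.02% higher and 3.58% lower (124 and 147 of 4105). After thinning to 5000 UMIs these numbers were 42 and 49 in control and 51 and 76 in rIL7. Of the mitotic kinase and checkpoint list, 11 of 14 genes that entered were higher in control and 8 of 13 in rIL7, and 0 were lower. With a median log2 ratio of 0.42 and 0.29 over its 29 genes, the list lay above the median of all genes, 0.02 and 0.01. Cdca8, which encodes borealin of the chromosomal passenger complex, had 91.1 CPM in the proliferative spots and 60.4 in the others of the control section, a ratio of 1.51 (1.27 to 1.78). Its rIL7 levels were 84.6 and 61.4 CPM, a ratio of 1.38 (1.18 to 1.60). Ccna2, the cyclin of S phase and G2, was 1.41-fold and 1.39-fold higher. Ratios of 1.38 and 1.40 were found for Pttg1, the securin that holds back separase, and of 1.32 and 1.42 for the kinase Plk1. The E2 enzyme Ube2c, which serves the APC/C, was at 1.33 in both sections, and its activator Cdc20 was at 1.253 and 1.42. Ube2s, the member with most UMIs, was higher by the same rule in the control section only, with 1.29 and 1.16, and this difference between sections was not tested.

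Kinesins and proteins of the spindle and the cleavage furrow gave 1539 CPM against 1168 in the control section and 1501 against 1159.9 in the rIL7 section, ratios of 1.32 (1.27 to 1.37) and 1.29 (1.248 to 1.34). Of the genes that entered, 8 of 9 and 4 of 10 were higher, and 0 were lower. Prc1, which bundles the microtubules of the central spindle, had 88.8 CPM against 67.5 in the control section and 109 against 70.3 in the rIL7 section, ratios of 1.32 (1.11 to 1.55) and 1.55 (1.35 to 1.78). Tpx2, an activator of Aurora A on the spindle, stood at 1.40 and 1.46, and Tacc3 of the spindle microtubules at 1.41 and 1.36. Anln, the anillin of the contractile ring, was at 1.51 and 1.26, and its partner in furrow assembly Racgap1 at 1.41 and 1.18. The centromere and kinetochore list, led by the centromeric histone Cenpa with 1.33 and 1.246, had ratios of 1.33 (1.27 to 1.39) and 1.26 (1.21 to 1.31).

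Replication genes stood at lower ratios than mitotic genes in both sections, an order that cannot be separated from the ranking on mitotic genes. The replication licensing and fork list summed to 2671 CPM in the proliferative spots and 2175 in the others of the control section, a ratio of 1.23 (1.19 to 1.27). Its rIL7 sums were 2654 and 2327 CPM, a ratio of 1.14 (1.11 to 1.17). Of its genes that entered, 6 of 15 were higher in control and 3 of 16 in rIL7. The sliding clamp Pcna, with most UMIs in the list, was at 1.14 and 1.01, and the helicase subunit Mcm7 at 1.15 and 1.01. Mcm5 of the same helicase passed the size rule in both sections with 1.26 and 1.27. Nucleotide synthesis had ratios of 1.15 (1.11 to 1.18) and 1.11 (1.08 to 1.14), with the reductase subunit Rrm2 at 1.19 and 1.39 and thymidylate synthase Tyms at 1.23 and 1.29. Homologous recombination and repair genes were scarce, 386 CPM against 304 and 365 against 310.3, with ratios of 1.27 (1.17 to 1.37) and 1.18 (1.09 to 1.26) and no gene at 50 CPM.

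Genes of entry into the cycle had ratios close to those of nucleotide synthesis. The list of G1/S cyclins, their kinases and E2F factors had ratios of 1.14 (1.11 to 1.19) and 1.12 (1.09 to 1.16). Its 2 genes with most UMIs, cyclin D1 (Ccnd1) and Cdk4, were at 1.18 and 1.17 in the control section and 1.16 and 1.02 in the rIL7 section. Foxm1, which drives transcription of the mitotic genes, was the 1 member past the size rule in both sections, with 1.30 (1.11 to 1.53) and 1.44 (1.24 to 1.66). Condensin, cohesin and chromatin genes had ratios of 1.15 and 1.17, with the histone variant H2afz at 1.17 and 1.19. Tubulins and stathmin had 1.14 and 1.09, with stathmin (Stmn1) at 1.31 and 1.26 and the abundant Tubb5 at 1.09 and 1.07. The list of MYC and ribosome biogenesis, which serves growth, had ratios of 1.13 (1.102 to 1.16) and 1.09 (1.07 to 1.11), while Myc itself was at 0.91 and 1.13.

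Inhibitors of the cycle and p53 targets as a list were near 1, at 0.95 (0.92 to 0.99) and 0.93 (0.90 to 0.97), with 1 of 4 quadrants above 1 in each section. Cdkn1a, the p21 inhibitor, was at 0.95 and 0.83, and Txnip, a brake on glucose uptake, at 0.86 and 0.98. Cdkn2d, which encodes the p19 inhibitor of Cdk4 and Cdk6, went the other way from its list and was higher in both sections, with 1.42 and 1.31.

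**Figure D2:**
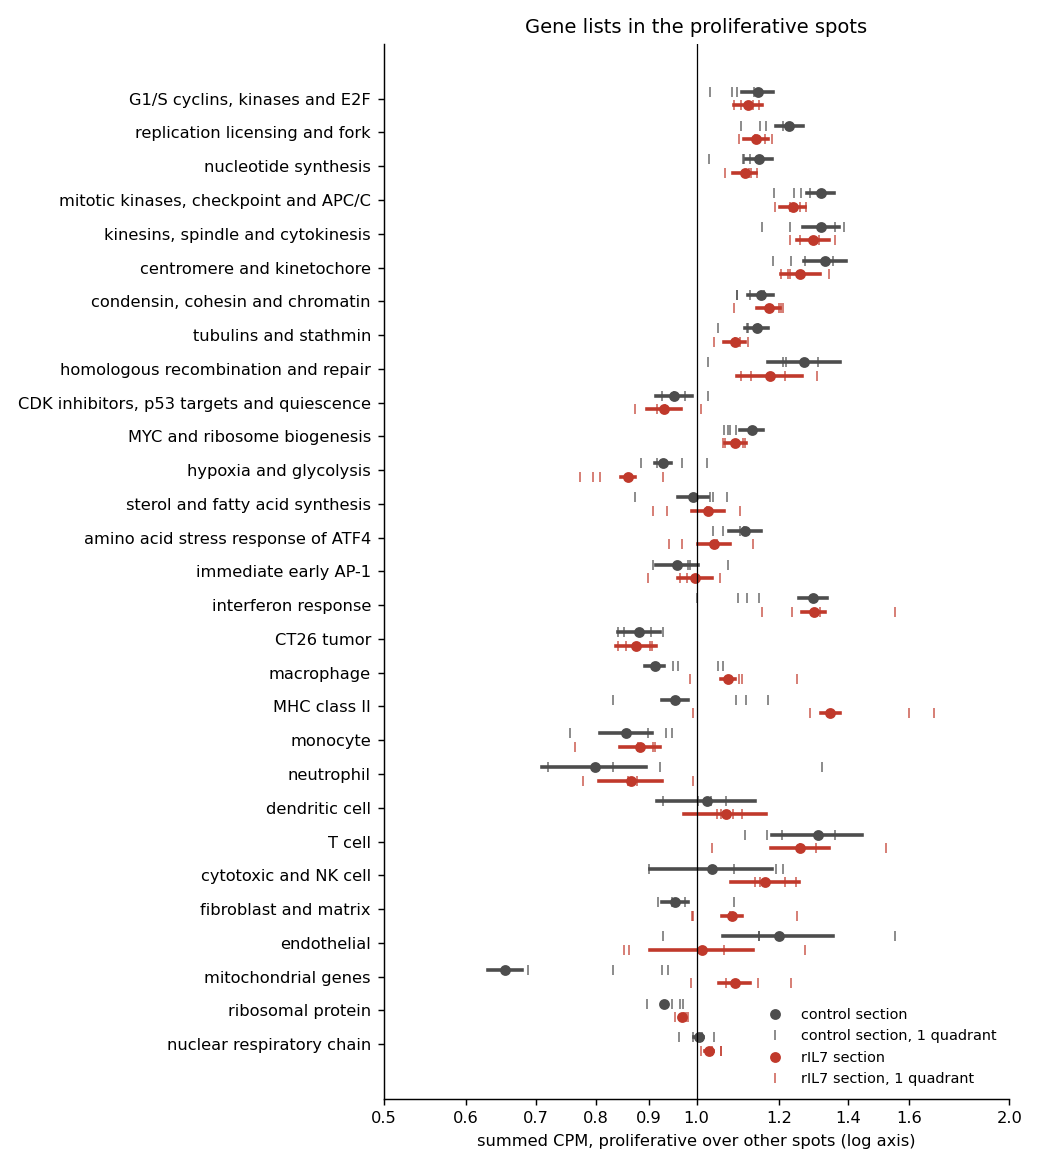
Summed CPM of each gene list in the proliferative spots over the other spots of the same section, on a log axis. Points are whole sections (grey control, red rIL7) with 95% counting intervals and ticks are single quadrants. Besides the genes of the choice, 6 lists are not drawn: red blood cell, haemoglobin, keratinocyte, adipocyte, skeletal muscle, and B and plasma cell. Cell cycle lists lie right of 1 in all quadrants of both sections. MHC class II and mitochondrial genes lie on opposite sides of 1 in the sections. The control interferon point at 1.29 lies right of all 4 of its quadrants. So do the control points of the mitotic kinase, replication, nucleotide synthesis, G1/S, MYC and ATF4 lists. Control mitochondrial and macrophage points lie left of all their quadrants.

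The lists followed the ranking below the proliferative spots too. Over 10 classes of spots ranked by the 6 genes, the mitotic kinase and checkpoint list went from 1731 CPM in the lowest class to 2410 in the class next to the proliferative spots and 2695 in the proliferative spots of the control section. For rIL7 the same 3 levels were 1675, 2366 and 2448 CPM. The replication list went from 1915 to 2465 and 2671 CPM and from 2021 to 2648 and 2654 CPM. Proliferative spots were thus the upper end of a graded scale, and the top class of the rIL7 section was hardly above the class below it for replication.

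**Figure D3:**
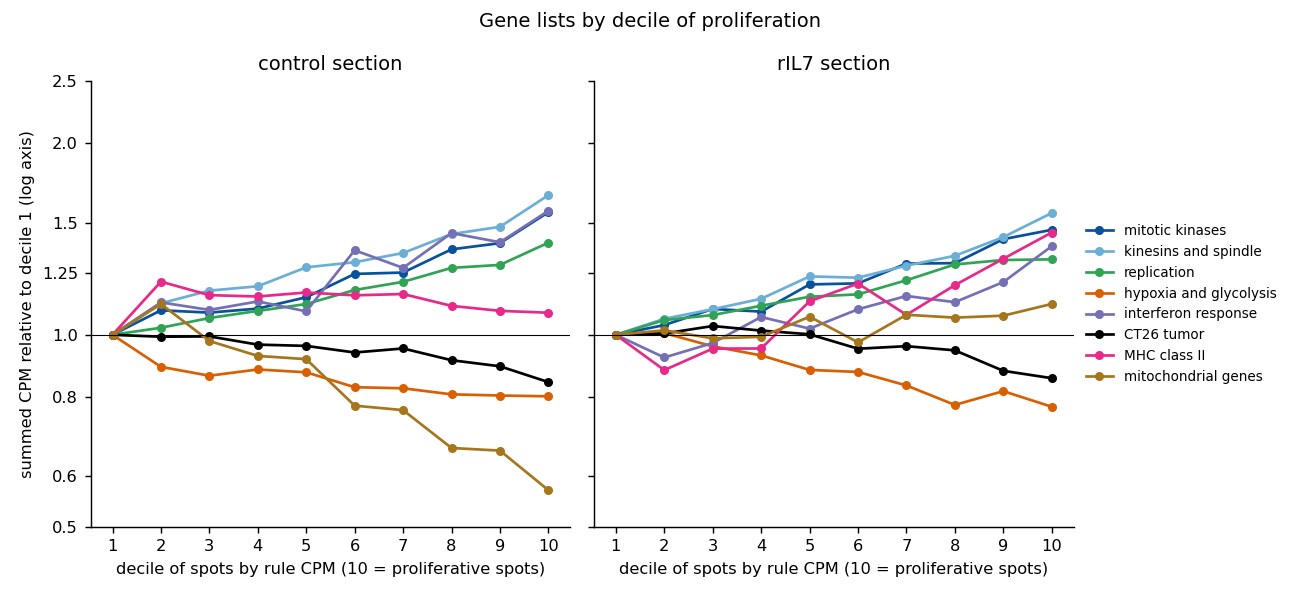
Summed CPM of 8 gene lists over spots ranked by the 6 genes of the choice and cut into 10 classes (horizontal axis, class 10 holds the proliferative spots), relative to class 1, on a log axis. Mitotic, spindle and replication lists climb towards class 10 in both sections, hypoxia and CT26 genes decline, and mitochondrial genes decline in the control section only.

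Hypoxia and glycolysis genes as a sum were lower in the proliferative spots. Under low oxygen, cells switch on glucose uptake, glycolysis and mitophagy through HIF-1. The list of 24 genes had 7853 CPM in the proliferative spots and 8460.5 in the others of the control section, a ratio of 0.93 (0.91 to 0.94, quadrants 0.89 to 1.02). Its rIL7 levels were 7884 and 9171 CPM, a ratio of 0.86 (0.85 to 0.87, quadrants 0.77 to 0.93). Medians over single spots were nearly level in control, 7705 CPM in proliferative and 7727 in other spots. In rIL7 they were 7074 and 7691 CPM. In each section 6 of 17 genes that entered were lower and 0 higher. Bnip3, which marks mitochondria for removal, had 124 CPM against 188 in control and 157 against 253 in rIL7, ratios of 0.66 (0.58 to 0.76) and 0.62 (0.55 to 0.69). Ndrg1, a stress gene induced by low oxygen, had 106 against 160.3 CPM and 162 against 255, ratios of 0.66 (0.57 to 0.77) and 0.63 (0.57 to 0.71). The glucose transporter Slc2a1 was at 0.71 and 0.69 and the oxidase Ero1l, which forms disulfide bonds in the endoplasmic reticulum, at 0.76 and 0.68. All 4 were lower in the proliferative spots of both sections. Enzymes of glycolysis, which gave most of the UMIs of the list, were closer to 1, with Gapdh at 0.97 and 0.94 and Ldha at 0.94 and 0.86. Within the interior the list ratio was 0.96 (0.94 to 0.98) and 0.89 (0.87 to 0.91), and at the edge 0.82 and 0.83.

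Interferon-induced genes were higher, by an amount that differed with the position of the spots compared and after thinning. Interferons are signals that induce antiviral genes and chemokines. The list of 19 genes had 2488 CPM in the proliferative spots and 1922 in the others of the control section, a ratio of 1.29 (1.254 to 1.34). Its rIL7 section levels were 3127 and 2412 CPM, or 1.30 (1.26 to 1.33). Of the genes that entered, 7 of 12 and 8 of 14 were higher and 0 lower. Cxcl10, a chemokine that draws T cells, had 234 CPM against 175 in control and 373 against 255 in rIL7, ratios of 1.34 (1.20 to 1.48) and 1.47 (1.36 to 1.58). Bst2, which tethers budding virus and had most UMIs in the list, was at 1.19 and 1.24. Single quadrants of the control section gave 1.002 to 1.15 for the list, all below the value of the whole section, while those of the rIL7 section gave 1.16 to 1.55. Choosing spots and comparing them inside quadrants, an alternative added after seeing the data, gave 1.09 in control and 1.30 in rIL7. The control ratio was 1.35 (1.28 to 1.43) at the edge and 1.26 (1.21 to 1.31) in the interior, and the rIL7 ratio 1.09 (1.04 to 1.13) and 1.22 (1.18 to 1.26). After thinning the ratios were 1.15 in control and 1.14 in rIL7.

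Genes of antigen presentation by MHC class II lay on opposite sides of 1 in the sections, a difference that was not tested. Cd74, H2-Ab1, H2-Aa, H2-Eb1, H2-DMa, H2-DMb1 and another member of the list load and show peptides on macrophages, dendritic cells and B cells. They had 2733 CPM in the proliferative spots and 2867 in the others of the control section, a ratio of 0.95 (0.93 to 0.98). Their rIL7 section levels were 4379 and 3257 CPM, a ratio of 1.34 (1.32 to 1.37). Of 6 genes that entered, 0 were higher and 1 lower in control, and 6 were higher in rIL7. The control direction was not stable. Of the 4 control quadrants, 3 were above 1 (range 0.83 to 1.17), the ratio after thinning was 1.05, and the ratio was 1.24 (1.17 to 1.31) at the edge and 0.85 (0.82 to 0.88) in the interior. For rIL7 the order was the opposite, with 0.83 (0.81 to 0.86) at the edge and 1.31 (1.28 to 1.35) in the interior, and 1.21 after thinning. H2-DMa, which loads peptide onto MHC class II, was among the 4 genes whose ratio differed most between the sections, with 0.77 (0.61 to 0.94) and 1.31 (1.14 to 1.499).

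Marker lists of other cells moved with the choice as well. The macrophage list, all 15 genes of which had at least 20 UMIs in each section, was at 0.91 (0.89 to 0.93) and 1.07 (1.06 to 1.09), with Apoe at 0.85 and 1.12 and Lyz2 at 0.92 and 1.09, and crossed 1 in the control section after thinning. Its control quadrants ran from 0.95 to 1.06. At the edge it was 0.98 (0.94 to 1.02) in control and 0.83 (0.81 to 0.85) in rIL7, where it turned below 1, and in the interior 0.89 and 1.04 (1.02 to 1.06). Aif1, a calcium-binding protein of macrophages, stood apart from this list and was higher in both sections, with 1.252 and 1.40. T cell genes were higher, at 254 CPM against 195 in control and 473 against 376 in rIL7, ratios of 1.31 (1.18 to 1.44) and 1.26 (1.18 to 1.34), with all quadrants above 1. After thinning they were 1.14 and 1.19. At the edge of the rIL7 section the T cell ratio was 0.84 (0.76 to 0.93). Cytotoxic and NK cell genes were at 1.03 (0.90 to 1.18) and 1.16 (1.08 to 1.26), and dendritic cell genes at 1.02 and 1.07 with intervals that held 1. Monocyte genes as a sum were at 0.86 and 0.88, but most single members went the other way. Of 7 monocyte genes with at least 20 UMIs, 4 were above 1 in control and 5 in rIL7. Their median log2 ratios were 0.28 and 0.50, so the sums do not describe the typical member. Neutrophil genes were at 0.80 and 0.87, led by the calprotectin subunit S100a9 with 0.72 and 0.71. Fibroblast and matrix genes were at 0.95 and 1.08 and endothelial genes at 1.20 (1.06 to 1.35) and 1.01 (0.90 to 1.13). The fibroblast list was at 1.01 (0.95 to 1.07) at the control edge and 0.92 (0.89 to 0.96) at the rIL7 edge. In the interior it was at 0.94 and 1.05. The collagen gene Col1a1 was higher in both sections, 1.28 and 1.66, while the proteoglycan gene Dcn was lower. The part of these cells in the higher interferon and MHC class II levels was not tested. Skeletal muscle genes were at 1.27 (1.08 to 1.47) and 1.16 (0.79 to 1.63), below 1 in 3 of the 4 control quadrants. B and plasma cell genes were at 1.19 (0.90 to 1.53) and 1.11 (1.02 to 1.21), and neither direction was stable. In rIL7 their quadrants ran from 0.74 to 2.43, and the ratio was 0.50 (0.45 to 0.55) at the edge, 1.21 (0.99 to 1.47) in the interior, 0.54 with the top 5% of spots and 0.53 within depth classes. In control it was 2.27 (1.44 to 3.46) at the edge and 0.90 (0.63 to 1.248) in the interior. Keratinocyte genes were at 0.98 and 1.13, and adipocyte genes at 1.07 and 0.99, both with intervals that held 1. Red blood cell genes had only 4 UMIs in the proliferative spots of control and 16 in those of rIL7, and haemoglobin genes 5 and 21, so their ratios of 0.58, 3.06, 0.60 and 2.89 rest on few molecules.

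Of 3 lists of metabolism and stress, the amino acid response of ATF4 was at 1.11 (1.07 to 1.15) and 1.04 (1.004 to 1.08), with Phgdh, the first enzyme of serine synthesis, at 1.30 and 1.246. Sterol and fatty acid synthesis was at 0.99 (0.96 to 1.03) and 1.03 (0.99 to 1.06). Immediate early AP-1 genes were at 0.96 (0.91 to 1.002) and 0.997 (0.96 to 1.04), although Ier3, an inhibitor of cell death, was lower in both sections with 0.73 and 0.72.

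CT26 tumor genes were lower in the proliferative spots. Baiap2l1 and Rpl39l, the 2 genes by which the tumor line was read, summed to 1149 CPM against 1305 in control and to 923 against 1054 in rIL7. The ratios were 0.88 (0.84 to 0.92) and 0.88 (0.84 to 0.92), with quadrants from 0.84 to 0.93 and from 0.84 to 0.91. At the edge of the rIL7 section the ratio was 1.02 (0.93 to 1.12). Rpl39l is a near copy of the ribosomal gene Rpl39, and how the counting split their reads is not given in the sources used here. Whether the dividing cells were tumor cells cannot be read from spots.

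Mitochondrial transcripts were lower in the proliferative spots of control, while the direction in rIL7 differed with position. They were rare, 0.170% of the UMIs of the proliferative spots and 0.260% of those of the others in the control section, and 0.165% and 0.151% in the rIL7 section. All 8 genes that entered in the control section were lower, with a list ratio of 0.65 (0.63 to 0.68, quadrants 0.69 to 0.94). For rIL7 0 of 6 were lower, with a ratio of 1.09 (1.05 to 1.13, quadrants 0.99 to 1.23). That value lay above both of its position classes, 0.92 (0.87 to 0.97) at the edge and 1.04 (0.99 to 1.09) in the interior, where the control ratios were 0.67 (0.62 to 0.72) and 0.62 (0.59 to 0.65). After thinning the ratios were 0.87 in control and 1.03 in rIL7. mt-Atp6, a subunit of ATP synthase, had 381 CPM against 640 in control and 373 against 352 in rIL7. mt-Co3, a subunit of cytochrome oxidase, had 288 against 489 CPM and 337 against 322. The difference between the sections was not tested. Nuclear genes of the respiratory chain were at 1.005 and 1.03, so the control difference was found in transcripts of the organelle's own genome. Compared only with the spots beside them, an alternative added after seeing the data, the proliferative spots of the control section stood at 0.94 for the mitochondrial list. Ribosomal protein genes were slightly lower in both, 0.93 and 0.97.

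Set side by side, 3905 genes entered in both sections. Higher in both were 40 genes, which is 23.7% of those higher in the control section and 40.4% of those higher in the rIL7 section. Of these 40, 15 belonged to the cell cycle lists and 5 to the interferon list. Lower were 163 genes in control and 127 in rIL7. Of these, 50 were lower in both, 30.7% and 39.4%, where the shares over all genes were 4.26% and 3.58%. Higher in one section and lower in the other was 1 gene. In all 8 quadrants 125 genes were above 1 and 143 below.

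Ranked by the mean of both log ratios among genes on 1 side of 1 in all 8 quadrants, the 12 with the largest ratios included Cfb, Cdca8, Prc1, Tpx2, Cxcl10, Ccna2, Ppil1, Pttg1, Tacc3, Foxm1 and Plk1. Cfb, the complement factor B of the alternative pathway, came first. It had 109 CPM in the proliferative spots and 71.6 in the others of the control section, and 140.5 and 91.1 in the rIL7 section, ratios of 1.53 (1.31 to 1.78) and 1.54 (1.37 to 1.74). Its quadrants ran from 1.09 to 1.55 and from 1.21 to 2.31. Cfb belonged to none of the lists and lies on chromosome 17 (34856374 to 34862514). Ppil1, an isomerase of the spliceosome, was at 1.498 (1.31 to 1.71) and 1.30 (1.13 to 1.49).

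**Figure D4:**
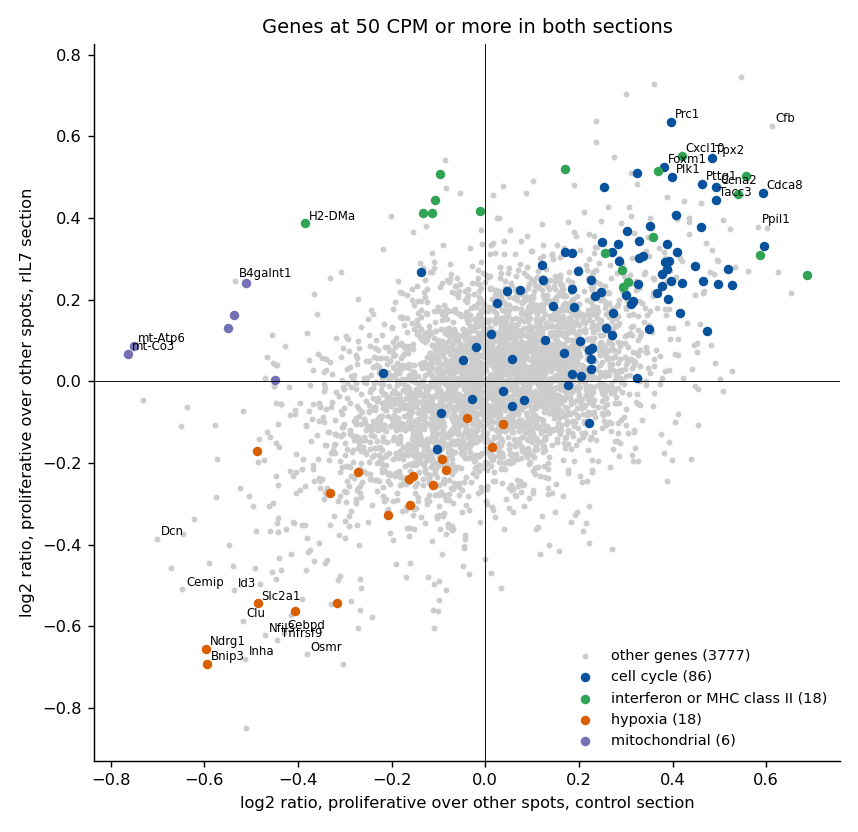
log2 ratio of proliferative over other spots for the 3905 genes at 50 CPM or more in both sections, control section on the horizontal axis and rIL7 section on the vertical axis, with gene groups in colour and their number in the legend. Cell cycle genes (86, blue) lie mostly in the upper right, Bnip3 and Ndrg1 (orange) in the lower left, and mitochondrial genes (6, purple) left of 0 in control and near or above 0 in rIL7.

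The 12 genes with the smallest ratios were Bnip3, Ndrg1, Inha, Cemip, Clu, Nfil3, Dcn, Tnfrsf9, Osmr, Id3, Cebpd and Slc2a1. Of these, 3 were in the hypoxia list and 1, Dcn, in the fibroblast list. Clu, the extracellular chaperone clusterin, had 281 CPM in the proliferative spots and 403 in the others of the control section, and 191 and 287 in the rIL7 section, ratios of 0.70 (0.64 to 0.77) and 0.67 (0.60 to 0.73). Cebpd, a transcription factor of the inflammatory response, had 273 against 368 CPM and 339 against 520 CPM, ratios of 0.74 (0.67 to 0.81) and 0.65 (0.61 to 0.70). Osmr, the receptor of oncostatin M, was at 0.77 (0.64 to 0.91) and 0.63 (0.54 to 0.72). Dcn, the decorin of the collagen matrix, was at 0.62 (0.54 to 0.70) and 0.77 (0.70 to 0.83). Tnfrsf9, the 4-1BB receptor that costimulates activated T cells, was at 0.74 (0.61 to 0.88) and 0.64 (0.57 to 0.73), opposite in direction to the T cell list. Cemip, which breaks down hyaluronan, was at 0.64 and 0.70, Id3, an inhibitor of DNA-binding factors, at 0.69 and 0.70, and Nfil3, a factor of the bZIP family, at 0.72 and 0.65. Inha, the alpha subunit of inhibin, was at 0.70 and 0.62 but had only 71 and 78 UMIs in the proliferative spots. The range over the 12 genes was 0.62 to 0.77 in both sections. The fourth gene whose ratio differed most between the sections, beside mt-Atp6, mt-Co3 and H2-DMa, was B4galnt1, a synthase of gangliosides. It had 60.8 CPM in the proliferative spots and 87.9 in the others of the control section, a ratio of 0.69 (0.56 to 0.84, quadrants 0.35 to 1.17), and 119 and 100.2 CPM in rIL7, which is 1.19 (1.04 to 1.35). None of these 4 differences between sections was tested.

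Levels around the proliferative spots were graded. In the control section the mitotic kinase and checkpoint list went from 2695 CPM in the proliferative spots to 2273 in the 722 spots beside them and to 1832 in the 430 spots 4 or more grid steps away. This last class also takes any spot with no grid path to a proliferative spot. The list went from 2448 to 2176 CPM in 622 adjacent spots and 1699.7 CPM in 234 distant ones of the rIL7 section. Interferon genes went from 2488 to 2238 and 1730 CPM and from 3127 to 2912 and 1826 CPM along the same steps. MHC class II genes went from 4379 CPM to 4211 and 2117 in the rIL7 section, but in the control section from 2733 to 2436 and up to 3733 CPM. The median depth was greater farther away, from 7898 to 13314 UMIs in control and from 11137 to 14829 in rIL7, and its part in these gradients was not tested.

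**Figure D5:**
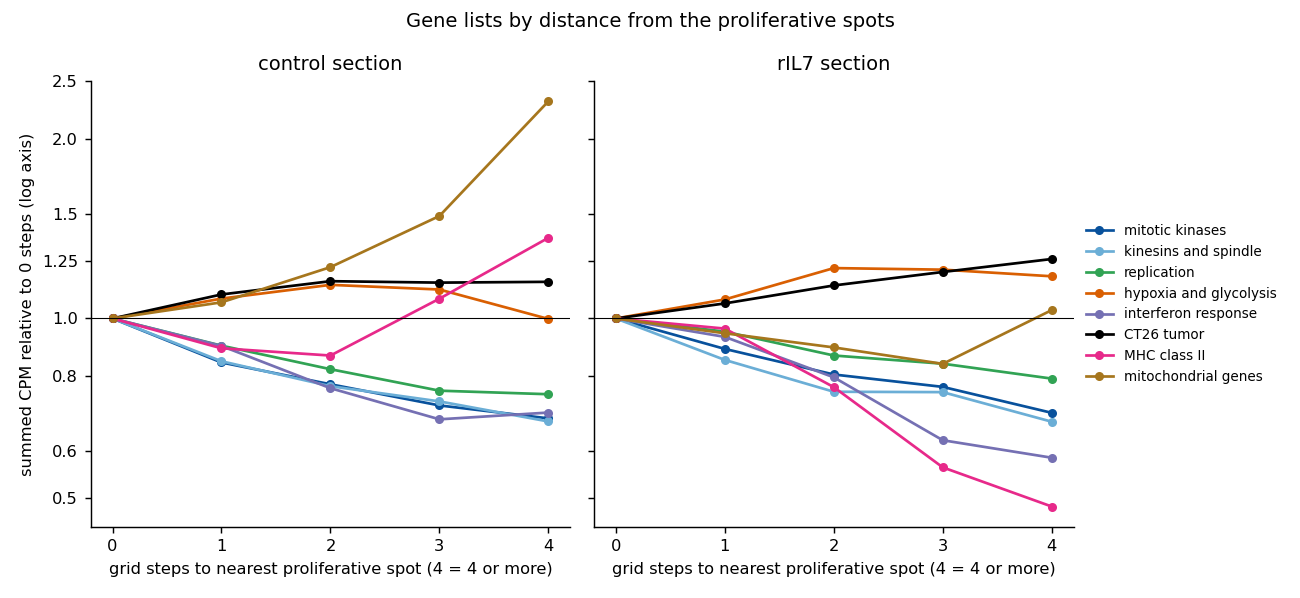
Summed CPM of 8 gene lists over spots by their distance in grid steps from the nearest proliferative spot (horizontal axis, 0 for the proliferative spots, 4 for 4 or more steps), relative to 0 steps, on a log axis. Class 4 also takes any spot with no grid path to a proliferative spot. Mitotic, spindle, replication and interferon lists lie lower at 4 steps than at 0 in both sections, while the MHC class II list lies above its start at 4 steps in control and lowest of the 8 lists in rIL7.

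Proliferative spots with 2 or more proliferative neighbours had more mitotic transcripts than lone ones. The mitotic kinase and checkpoint list stood at 2859.5 CPM in 68 grouped spots and 2465 CPM in 74 lone spots of the control section, and at 2577 CPM in 60 grouped and 2304 CPM in 64 lone spots of the rIL7 section. The 6 genes of the choice were nearly level over these spots, at 1413 and 1409 CPM in the control section and 1338 and 1289.8 in the rIL7 section. Interferon genes were higher in the grouped spots of the control section, 3105 against 2230 CPM, and by less in those of the rIL7 section, 2999 against 2798 CPM. Spots with 1 proliferative neighbour had 2251 CPM in control and 3574 CPM in rIL7, there above both lone and grouped spots. MHC class II genes were at 3045 against 2807 CPM in control and at 3395 against 3939 CPM in rIL7. With 1 proliferative neighbour they were below both in control, at 2406 CPM, and above both in rIL7, at 5670 CPM. Lone spots were deeper than grouped ones, with medians of 8829 against 7479.5 UMIs in control and 11970 against 10404 in rIL7. The part of depth was not tested.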

How the data were processed

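The authors counted UMIs with Space Ranger 1.1.0 (named in the submitters' processing notes) against mm10, and deposited raw counts per gene and spot for 32285 features of 1 control and 1 rIL7 section. Spots over tissue with more than 200 genes were kept, which removed 2 and 1 spots. Counts were summed over the proliferative spots and over the others of a section and divided by their total (CPM). The ratio of the sums was given with a Clopper-Pearson interval (scipy 1.17.1, numpy 2.4.6, Python 3.11.15), after a check on simulated counts. Simulated ratios were read on spots marked in advance, so the check did not cover how choosing spots on few UMIs affects the ratios. Intervals cover counting error only. With 1 section per group, no test was made. The members, the 31 gene lists and the 4 gene families taken by symbol were chosen with earlier results of these data known. Mx1 had no row, and Aldoa and Ddit3 had more than 1 row of their symbol, so the lists leave them out. Named were the 6 genes of the choice, the 12 largest and 12 smallest mean ratios among genes of at least 50 CPM in both sections and on 1 side of 1 in all 8 quadrants, list members with most UMIs or past the size rule (1.25 or 0.8), and the 4 genes whose ratios differed most between sections. Of these genes, 1 is not reported here. Gene positions are those of RefSeq on GRCm38.p6. Promoters were not analysed here. Alternatives covered the spot filter, the share chosen, depth, the ranking genes, weights, scaling, position and the gene minimum.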

Additional observations from a re-analysis of the deposited data

Results flagged for a closer look

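In 4 gene lists the ratio of proliferative over other spots lay on opposite sides of 1 in the 2 sections with counting intervals that left out 1. With 1 section per group the difference was not tested, and in none of the 4 lists did every quadrant keep to the side of its section. Mitochondrial genes stood at 0.655 in control and 1.09 in rIL7. For the MHC class II list the ratios were at 0.953 and 1.34, and the macrophage list at 0.911 and 1.07. Fibroblast and matrix genes were at 0.954 and 1.08. At the edge of the rIL7 section all 4 ratios were below 1. They were 0.92 for mitochondrial, 0.83 for MHC class II, 0.83 for macrophage and 0.92 for fibroblast and matrix genes.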

How the results depend on the processing

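No paired analysis was possible because each group holds 1 section. Comparing within quadrants and comparing with adjacent spots were chosen after seeing the data. Across alternatives the 9 cell cycle lists stayed above 1 in both sections, and no hypoxia, interferon or mitotic ratio reversed. Of 868 values of the lists not detailed here, 687 stayed within the counting interval of the reported ratio, 168 moved outside it and 13 reversed. Of 784 values of named genes, 678 stayed within it, 105 moved outside it and 1 reversed, and these were unevenly spread. After thinning 28 of 56 moved and 1 reversed, and against adjacent spots 24 of 56 moved, while 4 settings moved 0 of 56. The numbers of genes past the size rule depended on the settings more than the list ratios did. Among them, the 182 higher and 176 lower genes of the control section became 526 and 528 with a minimum of 20 CPM, 1994 and 2070 genes with 20 UMIs and no other minimum, 9 and 15 at a ratio of 1.5, 314 and 297 with the top 5% of spots, 96 and 82 with the top 20%, 42 and 49 after thinning to 5000 UMIs, 74 and 83 within depth classes, 104 and 112 ranked on Mki67, Cdk1 and Ccnb2, 73 and 66 within quadrants, and 72 and 82 against adjacent spots. The 124 higher and 147 lower genes of the rIL7 section became 414 and 427 at 20 CPM, 1905 and 1874 with 20 UMIs, 8 and 16 at a ratio of 1.5, 51 and 76 after thinning, 51 and 66 ranked on Mki67, Cdk1 and Ccnb2, and 40 and 59 against adjacent spots, and the lower genes were 236 with the top 5% of spots and 90 with the top 20%.

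The mitotic kinase and checkpoint ratio was lower than reported in the control section with the top 20% of spots (1.26), after thinning (1.18), within depth classes (1.24), ranked on Mki67, Cdk1 and Ccnb2 (1.251) or on Top2a, Ccnb1 and Birc5 (1.248), within quadrants (1.22) and against adjacent spots (1.19). In the rIL7 section it was 1.19 after thinning, 1.16 ranked on Mki67, Cdk1 and Ccnb2, and 1.12 against adjacent spots. The hypoxia ratio of the control section was 0.904 within depth classes and 0.957 in the interior. That of the rIL7 section was 0.876 with the top 20%, 0.899 after thinning, 0.918 within depth classes, 0.889 in the interior, 0.840 under 1 threshold for both sections, 0.842 within quadrants and 0.929 against adjacent spots. The interferon ratio of the control section was 1.20 with the top 5%, 1.24 with the top 20%, 1.15 after thinning, 1.22 within depth classes, 1.23 under either ranking on 3 genes, 1.09 within quadrants and 1.11 against adjacent spots. In the rIL7 section it was 1.37 with the top 5%, 1.23 with the top 20%, 1.14 after thinning, 1.21 within depth classes, 1.13 ranked on Mki67, Cdk1 and Ccnb2, 1.22 in the interior, 1.34 under 1 threshold and 1.07 against adjacent spots. The MHC class II ratio of the control section reversed to 1.05 after thinning, 1.07 within depth classes, 1.01 with spots weighted equally, 1.05 within quadrants and 1.12 against adjacent spots, and was 0.925 with the top 5% and 0.852 in the interior. In the rIL7 section it was 1.21 with the top 5%, 1.32 with the top 20%, 1.21 after thinning, 1.20 within depth classes, 1.20 ranked on Mki67, Cdk1 and Ccnb2, 1.28 with equal weights, 1.31 in the interior, 1.41 under 1 threshold, 1.39 within quadrants and 1.04 against adjacent spots. Among the other lists, the control macrophage ratio reversed to 1.005 after thinning, 1.001 within depth classes and 1.06 against adjacent spots, where that of the rIL7 section was 0.970. The B and plasma cell ratio of the rIL7 section, 1.11 as first computed, reversed to 0.543 with the top 5%, 0.532 within depth classes, 0.906 within quadrants and 0.601 against adjacent spots. Skeletal muscle genes of the control section, at 1.27, reversed to 0.960 within depth classes, 0.911 within quadrants and 0.930 against adjacent spots. Against adjacent spots the cytotoxic and NK cell ratio of the rIL7 section was 0.987 and the fibroblast ratio of the control section 1.01. Of single genes, B4galnt1 in the rIL7 section reversed to 0.997 after thinning. The cause of these shifts was not tested. The choice of spots rests on few UMIs of 6 genes, 1 section per group leaves differences between animals unmeasured, and spots mix cell types.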
